A study of Mus musculus with 18 samples.

Results

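The data on 6 long noncoding RNAs of the mouse brain were taken from a comparison of Brca1 conditional knockout with wild-type animals at postnatal day 7: Malat1, Neat1, Meg3, Rian, Miat and Snhg11. They are 6 of 18193 genes named by the arrays. All probe sets annotated to exactly 1 of them were read, which gave 56 entries of 90174 in 3 tables, or 28 distinct probe sets. Of these, 15 were on the cortex A chip, 13 on the cortex B chip and 28 among the rest samples. Malat1 was chosen by its measured log2 changes, which were opposite in cortex and rest, so its values are given here as a description with no test, and the other 5 genes were tested.

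The knockout animals carry a Brca1 allele with exons 5 to 13 between recombination sites, paired with a null allele disrupted at exon 11 by a neo cassette in inverted orientation, and express Cre from the nestin promoter. That promoter is active in neural progenitors, so recombination is directed to neurons and the glia born from them, while microglia and blood vessel cells come from other lineages. The labels call the comparison group wildtype and do not give its Cre or floxed alleles, nor the strain or sex of any animal. Total RNA of cortex was hybridised to an Affymetrix A chip and B chip. Samples that the titles call rest, and the source field P7 brain, went on an array with the probe sets of both. What tissue rest covers is not stated. Each table has 3 wild-type and 3 knockout arrays, and nothing in the labels says whether arrays of the same number come from 1 animal, so p-values measure the spread between these arrays.

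Malat1 is an abundant RNA that stays in the nucleus, where it sits in nuclear speckles beside splicing factors. Neat1, made from the neighbouring gene, is the scaffold of paraspeckles. Meg3 and Rian are transcribed from the maternal copy of the imprinted Dlk1-Dio3 domain, from which a long series of microRNAs and small nucleolar RNAs is also processed. Miat (Gomafu) is a nuclear RNA of neurons, and Snhg11 is a neuronal host transcript of small nucleolar RNAs.

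In the GRCm38.p6 assembly all 6 are annotated as long noncoding RNA genes. Malat1 lies at chr19:5795690-5802672 and Neat1 on the same chromosome at chr19:5824708-5845480. Meg3 lies at chr12:109540996-109571729 and Rian further along the domain at chr12:109603945-109661716. Miat lies at chr5:112213228-112228948 and Snhg11 at chr2:158375713-158386474. The promoter window of Malat1 and the first of 2 windows of Meg3 are shown because the results turn on these genes, and because these starts differ in the letters searched. Each window runs from 250 bases before to 50 bases after the start, is from RefSeq, and is printed on the gene's own strand. Capitals mark matches, on either strand, to the cAMP response element TGACGTCA or to the TATA box letters TATAAA. 5 of the 6 genes had a window; Neat1 had none in the table used.
Malat1, chr19:5802623-5802922, minus strand: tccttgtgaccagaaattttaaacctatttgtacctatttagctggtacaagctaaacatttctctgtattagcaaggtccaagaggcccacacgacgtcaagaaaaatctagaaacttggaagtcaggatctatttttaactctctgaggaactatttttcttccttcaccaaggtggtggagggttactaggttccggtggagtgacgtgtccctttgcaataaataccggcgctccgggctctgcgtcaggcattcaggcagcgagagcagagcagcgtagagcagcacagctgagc
Meg3, chr12:109540746-109541045, plus strand: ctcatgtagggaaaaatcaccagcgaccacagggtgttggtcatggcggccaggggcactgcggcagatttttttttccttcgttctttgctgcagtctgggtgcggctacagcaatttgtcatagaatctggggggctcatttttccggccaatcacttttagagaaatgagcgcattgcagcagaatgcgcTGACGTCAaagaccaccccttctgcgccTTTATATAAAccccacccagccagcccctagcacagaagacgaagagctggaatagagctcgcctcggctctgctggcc
The Meg3 window printed holds the response element 57 bases before the start, and overlapping TATA letters from 29 bases before it. The response element occurs in 1.79% of 32851 windows of the same length, and the TATA letters in 13.6%. The Malat1 window holds neither, and nor does the second Meg3 window, at chr12:109545148-109545447. These are matches of letters in a window, and no binding was measured.

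The arrays were checked before the genes were read. The share of probe sets with a listed signal was 54.0% to 58.0% per array on the A chip, but only 33.6% to 42.6% on the B chip. In rest it was 49.2% to 51.6%. Other cells were blank for a reason not stated. Signals are linear MAS5 intensities, scaled within each table and comparable within a table only. The ratio of the 3' to the 5' control signal, which rises as RNA is degraded, lay for beta-actin between 1.37 and 1.51 (A chip), 1.86 and 2.40 (B chip), and 1.64 and 1.96 (rest). Knockout array 3 was the highest on the B chip and in rest. For Gapdh the ratio stayed between 0.861 and 1.04 in all 3 tables. No test of genotype on either ratio passed (exact two-sided permutation p from 0.2 to 1, where 0.1 is the smallest that 3 arrays against 3 can give). The Y-linked transcript Eif2s3y was listed on knockout arrays 1 and 2 only, in each table, so sex moved partly with genotype. Its part in the results was not tested. A sex term takes up knockout arrays 1 and 2, so a change given with it compares knockout array 3 alone with wild type. Such a change does not separate sex from genotype. For the targeted gene, the Brca1 probe set 1424629_at read 41.3 ± 6.65 (SD, n = 3) in wild type and 52.3 ± 8.73 (SD, n = 3) in knockout on the A chip (adjusted p = 0.496, limma). In rest it read 109 ± 6.64 and 113 ± 24.8 (SD, n = 3 each; adjusted p = 0.978, limma). The other Brca1 probe sets, 1424630_a_at, 1427698_at and 1451417_at, were blank on all A chip arrays. In rest 1424630_a_at was blank throughout, 1427698_at was listed on 1 array and 1451417_at on 2. Where 1424629_at lies relative to the floxed exons was not determined, so it does not check the genotype. The genotypes below are those of the labels.

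**Figure D1:**
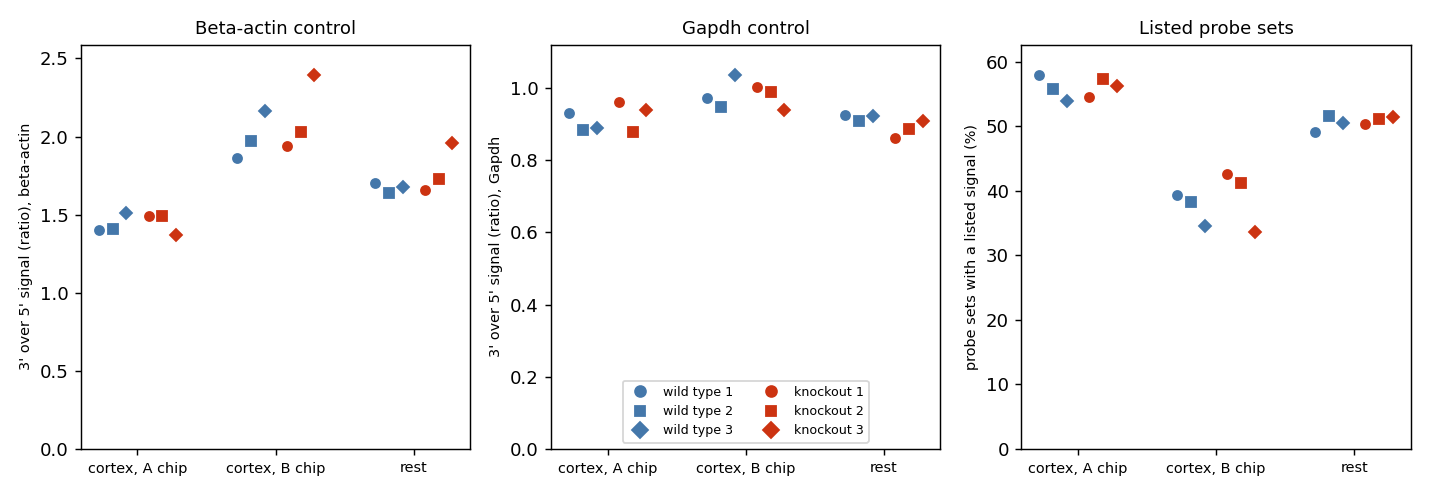
Ratio of 3' to 5' control signal for beta-actin (left) and Gapdh (middle), and percent of probe sets with a listed signal (right), for each array in the 3 tables. Each point is 1 array, blue for wild type and red for knockout, with its shape giving the array number. Knockout array 3 has the highest beta-actin ratio on the B chip, 2.40, and in rest, 1.96.

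Malat1 was measured by 7 distinct probe sets, which did not move together. 1438403_s_at, taken as the reference probe set, was higher in knockout cortex and lower in knockout rest. In cortex the wild-type arrays read 739, 551 and 750.3 and the knockout arrays 1218, 768 and 1068. Every knockout array stood above every wild-type array, although knockout array 2 was only just above the brightest wild-type array. The means were 680.3 ± 112 and 1018 ± 229 (SD, n = 3 each), a 1.50-fold higher level, with a log2 change of 0.56 (SE 0.162).

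In rest the same probe set read 354, 358 and 341 on the wild-type arrays and 128, 199 and 182 on the knockout arrays. The wild-type arrays were close together, 1.05-fold from lowest to highest, and the groups were far apart. The means were 351 ± 9.27 and 169.7 ± 36.9 (SD, n = 3 each), a 2.07-fold lower level in knockout, with a log2 change of -1.003 (SE 0.152). The change in rest minus that in cortex was -1.56 (SE 0.245). These are the values for which the gene was picked. With the beta-actin ratio as a covariate the log2 changes were 0.56 in cortex and -1.11 in rest. With a sex term, which leaves knockout array 3 alone against wild type, they were 0.65 and -0.89.

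The other A chip probe sets gave smaller differences. 1418189_s_at read 151, 132 and 129.8 in wild-type cortex and 264, 156 and 185 in knockout cortex, so the groups did not overlap (log2 change 0.47, SE 0.169). Its signals in rest were 102, 131 and 113 in wild type and 54.6, 100.2 and 124 in knockout, with overlapping groups (log2 change -0.32, SE 0.238). That lower mean came from knockout array 1, and with a sex term the sign turned to 0.10.

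1418188_a_at read 161, 98.3 and 172 in wild-type cortex and 194, 147 and 159.9 in knockout cortex, and the groups overlapped (log2 change 0.22, SE 0.187). The rest values were 177, 135 and 155 in wild type and 102, 133 and 131 in knockout, where the groups were apart by a narrow margin (log2 change -0.31, SE 0.155). Its cortex value rests on wild-type array 2, without which the log2 change was -0.00484. So the 3 A chip probe sets fitted in both tables had the same pair of signs, higher in cortex and lower in rest, but groups apart in both tables were found for 1438403_s_at alone.

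The B chip probe sets did not share that pattern. 1436202_at was higher in knockout in both tissues. It read 351, 395 and 387 in wild-type cortex and 788, 600.5 and 559 in knockout cortex, a 1.72-fold higher mean with no overlap (log2 change 0.74, SE 0.166). In rest it read 294, 242 and 233 in wild type and 381, 297 and 373 in knockout, again with no overlap (log2 change 0.43, SE 0.133). With a sex term the changes were 0.55 in cortex and 0.52 in rest.

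1429060_at was lower in knockout in both tissues. In cortex it read 538, 621 and 587 in wild type and 374, 591 and 319 in knockout, and knockout array 2 stood among the wild-type arrays (log2 change -0.47, SE 0.201). Its signals in rest were 453, 379 and 398 in wild type and 234, 293 and 353 in knockout, with no overlap (log2 change -0.47, SE 0.145). With a sex term its changes were -0.83 in cortex and -0.20 in rest. The cortex value was -0.72 without knockout array 2 and -0.30 without knockout array 3. In rest, where all probe sets share 6 arrays and 1 labelling of each RNA, 1436202_at was thus higher while 1429060_at and 1438403_s_at were lower.

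A further probe set, 1452378_at, was partly blank. It was listed on wild-type array 3 (47.7) and on the 3 knockout arrays (63.6, 52.4 and 58.4) in cortex, too few for a fit. In rest it was listed on 2 arrays of each genotype, at 78.3 and 42.6 in wild type and 81.1 and 65.6 in knockout (log2 change 0.26, SE 0.268, blanks left out of the fit). Without wild-type array 3 that change was -0.08. 1427285_s_at was blank on all arrays of both tables. As a mean of its fully listed probe sets, Malat1 changed by 0.42 (A chip), 0.13 (B chip) and -0.34 (rest) on the log2 scale. An average of this kind mixes probe sets that went opposite ways. In Affymetrix names, _s_at marks a set that may also match other transcripts and _a_at one that matches several transcripts of a gene. Where each probe set lies along Malat1 was not determined.

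**Figure D2:**
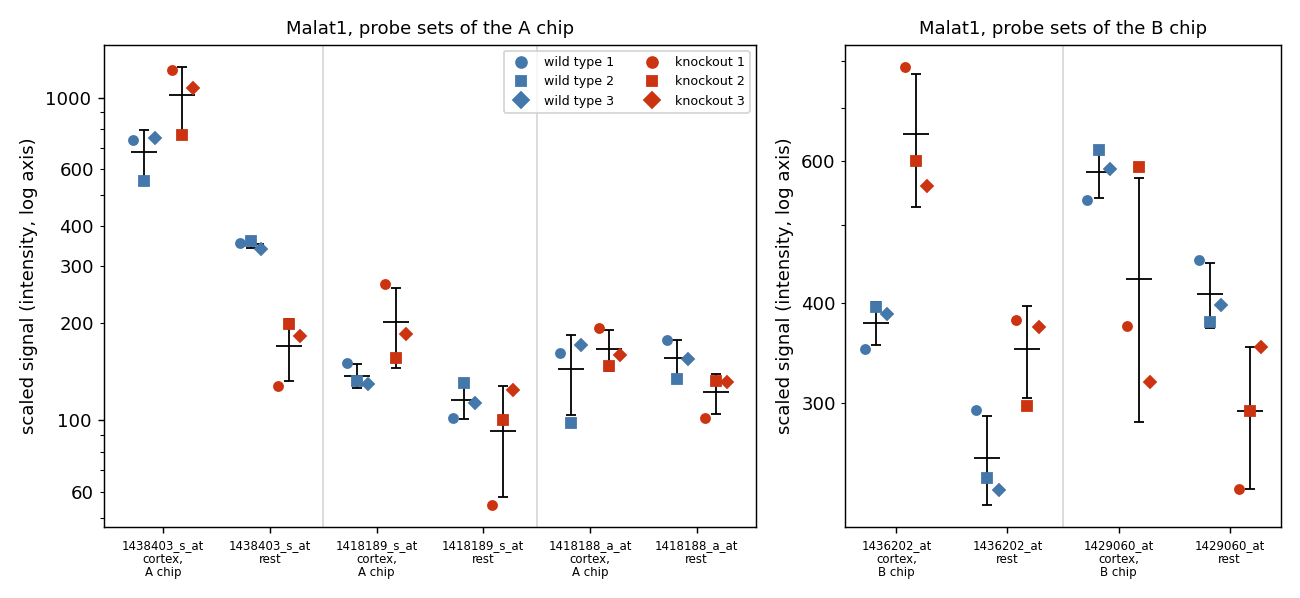
Scaled signal (intensity, log axis) of 5 Malat1 probe sets on every array, in cortex and in rest, with wild type in blue and knockout in red and the shape giving the array number. Horizontal bars are means and vertical bars 1 SD (n = 3). Levels are comparable within a pair of groups and not between tables. 1438403_s_at is higher in knockout cortex and lower in knockout rest, 1436202_at is higher in both, and 1429060_at is lower in both.

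Against all probe sets, the number called at an adjusted p under 0.05 was 364 of 12065 (3.02%) in the A chip table, 22 of 7838 (0.281%) in the B chip table and 67 of 21407 (0.313%) in rest. The knockout effect differed between the A chip and rest for 6 of 11959 shared probe sets (0.0502%). An unadjusted p under 0.05 was found for 15.7% (A chip), 7.39% (B chip), 10.5% (rest) and 10.5% (difference) of all probe sets tested. Groups with no overlap were found for 22.5%, 15.9% and 17.6% of the probe sets fitted in the 3 tables. Of the 5 genes other than Malat1, 10 probe sets were tested on the A chip, of which 2 fell, both of Meg3, and 6 had an unadjusted p under 0.05 (limma). On the B chip 10 were tested and 0 passed, with 0 at an unadjusted p under 0.05 (limma). In rest 19 were tested and 0 passed, with 4 at an unadjusted p under 0.05 (limma). For the difference between A chip and rest 10 were tested and 0 passed (limma adjusted p from 0.229 to 0.958), with 5 at an unadjusted p under 0.05.

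Meg3 was the only tested gene of the 5 with called probe sets, both in cortex and both lower in knockout. 1426758_s_at bears the _s_at ending explained above, and which other transcripts it or 1439380_x_at may match was not determined. 1426758_s_at read 2872, 3096 and 2547 in wild-type cortex and 2279, 1818 and 1865 in knockout cortex. All knockout arrays stood below all wild-type arrays. The means were 2838 ± 276 and 1987 ± 253 (SD, n = 3 each), a 1.43-fold lower level (log2 change -0.51, SE 0.0987, limma adjusted p = 0.0178). In 6 of 18 alternative settings its limma adjusted p was above the threshold (lowest over all settings 0.00598). The sex term, which rests on knockout array 3 alone, was among them. Others were leaving out wild-type array 1 (0.0774) or 2 (0.0666) or knockout array 2 (0.0949) or 3 (0.0724).

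1439380_x_at read 3834, 4196 and 4149.9 in wild-type cortex and 3535, 2851 and 3169 in knockout cortex, again with no overlap. Its log2 change was -0.35 (SE 0.0815, limma adjusted p = 0.0438). The call was lost in 12 of 18 alternatives (lowest limma adjusted p over all of them 0.0133). Among the 12 were leaving out any array other than knockout array 1, and the sex term, which rests on knockout array 3 alone. 1452183_a_at was close to it, at 3768, 3871 and 3889.5 in wild type and 3410.4, 2528 and 3026 in knockout (log2 change -0.37, limma adjusted p = 0.0677), and it passed without knockout array 1 (-0.47, adjusted p = 0.0140). These 3 probe sets followed each other over the 12 arrays of the A chip and rest tables (Pearson r of 0.943 and 0.970 with 1439380_x_at, each table centred on its mean), and they may not be independent measurements of the RNA.

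The remaining A chip probe sets of Meg3 differed from those 3. 1436057_at read 1177, 1229 and 1238 in wild-type cortex and 1306, 1166 and 1067 in knockout cortex (log2 change -0.05, limma adjusted p = 0.842). 1436713_s_at read 346, 499 and 1005 in wild type and 640.3, 1345 and 1146 in knockout, with overlapping groups (log2 change 0.82, SE 0.340, limma adjusted p = 0.275). Without wild-type array 3 this change was 1.23 and passed (limma adjusted p = 0.0446), in the direction opposite to the 2 called sets, and without wild-type array 1 it was 0.48 (limma adjusted p = 0.603). The mean of its 5 A chip probe sets changed by -0.09 (log2; limma adjusted p = 0.644).

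On the B chip, also cortex, 6 further Meg3 probe sets had log2 changes between -0.21 and 0.03 and none passed (limma adjusted p from 0.872 to 0.999). For example, 1452906_at read 15171, 12448 and 14056 in wild type and 15845, 13475 and 12554 in knockout, and the groups overlapped. Its difference was 0.00 on the log2 scale with an SE of 0.125.

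In rest none of the 11 Meg3 probe sets passed (limma adjusted p from 0.524 to 0.989). The 3 that were lower in knockout cortex had positive log2 changes there, 0.19 for 1426758_s_at, 0.14 for 1439380_x_at and 0.14 for 1452183_a_at. 1426758_s_at read 4069.7, 3312 and 2406 in wild-type rest and 3822, 3648 and 3466 in knockout rest, where wild-type array 3 was the lowest and array 1 the highest of all 6. The positive values rest on wild-type array 3, which was the lowest array for all 3 sets. Without it the changes were -0.0114, 0.00979 and 0.0246. Their changes in rest minus cortex were 0.70, 0.50 and 0.51, with limma adjusted p of 0.230, 0.229 and 0.229, so a difference between tissues was not shown.

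Rian, the next noncoding RNA of the domain, passed no test in any table. Its log2 changes were negative for 1 of 3 probe sets on the A chip, 1 of 1 on the B chip and 3 of 3 tested in rest. 1452899_at read 335, 245 and 233 in wild-type cortex and 187, 164 and 222 in knockout cortex, with no overlap (log2 change -0.46, SE 0.152, limma adjusted p = 0.157). The rest values were 513, 654 and 624 in wild type and 384, 395 and 586 in knockout, where knockout array 3 stood inside the wild-type range (log2 change -0.40, SE 0.160, limma adjusted p = 0.427).

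1428055_at of Rian lay in cortex between 91.0 and 107 on all 6 arrays (log2 change 0.01, SE 0.127, limma adjusted p = 0.983). In rest it was listed on 2 arrays of each genotype only, with no overlap, at 55.9 and 72.1 in wild type and 35.3 and 18.2 in knockout (log2 change -0.93, SE 0.261, limma adjusted p = 0.266, blanks left out). 1440001_at read 466, 372 and 491 in wild-type cortex and 451, 349.9 and 372 in knockout cortex on the B chip (log2 change -0.17, limma adjusted p = 0.916), and in rest it was listed on 3 arrays, too few for a fit.

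For 2 of 11 Meg3 probe sets and 1 of 2 Rian probe sets, the same 3 array numbers were highest in a cortex table and in rest. These 3 of 15 member probe sets other than Malat1 were singled out after the values were seen, and Miat and Snhg11 had 0 of 1 each. Meg3 1436713_s_at was highest on wild-type array 3 and knockout arrays 2 and 3 in cortex, and on the same numbers in rest, where it read 1258, 1099 and 2638 in wild type and 1235, 3087 and 2980.3 in knockout. Rian 1427580_a_at had the same 3 highest numbers in both tables, with 233, 185 and 419 in wild-type cortex, 182, 365 and 366 in knockout cortex, 288, 353 and 534 in wild-type rest and 168, 405 and 441 in knockout rest. The range over the 6 arrays was 3.89-fold and 2.81-fold for the Meg3 set and 2.30-fold and 3.17-fold for the Rian set. The Rian set changed by 0.14 in cortex and -0.27 in rest (log2; limma adjusted p = 0.874 and 0.838).

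Meg3 1428764_at ran the other way. It read 6903, 5109 and 4172 in wild-type cortex and 8029, 3450.5 and 3839 in knockout cortex on the B chip. In rest it read 3370.0, 3770.0 and 834 in wild type and 2181, 1079 and 879 in knockout, so wild-type arrays 1 and 2 and knockout array 1 were highest in both tables. Its log2 changes were -0.16 (limma adjusted p = 0.962) and -0.78 (limma adjusted p = 0.660). The same 3 numbers were highest in both tables for 7.99% of 10886 probe sets listed on all arrays of the A chip and rest, and for 6.78% of 5282 on the B chip and rest. A range of at least 2-fold in both tables was found for 205 and 140 of these probe sets. Of those, 71 and 18 had the same 3 numbers highest, which is 0.652% and 0.341% of all the shared sets. The Meg3 and Rian sets singled out above all had such a range. The labels do not say that the numbers join the same animals. Across probe sets with no blank in the A chip and rest tables, deviations from the group means correlated between arrays of the same genotype and number at -0.0205 to 0.142, and 4 of 6 arrays correlated best with their own number. Knockout arrays 2 and 3 did not (0.0417 against 0.173, and -0.0205 against 0.0643, for another number).

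**Figure D3:**
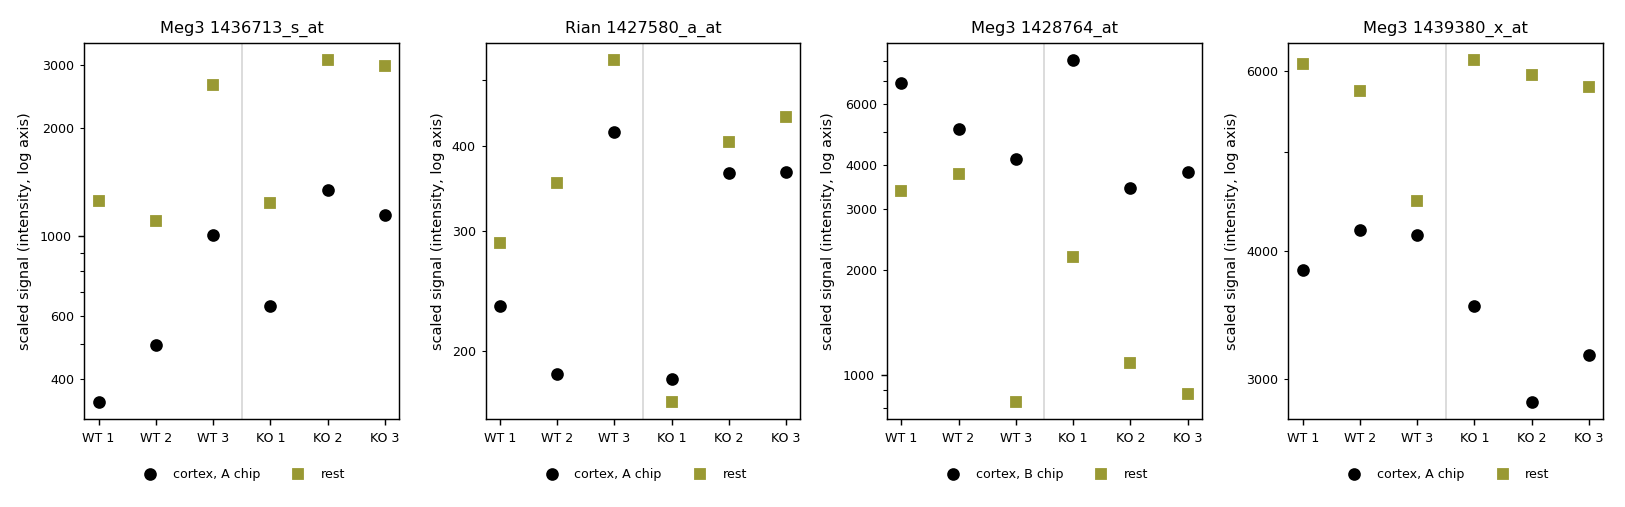
Scaled signal (intensity, log axis) by array number for Meg3 1436713_s_at, Rian 1427580_a_at, Meg3 1428764_at and Meg3 1439380_x_at, black circles for the cortex chip and olive squares for rest, WT for wild type and KO for knockout. Heights of black and olive symbols are not comparable. The first pair of panels is highest on WT 3, KO 2 and KO 3 in both tables, 1428764_at is highest on WT 1, WT 2 and KO 1, and 1439380_x_at is lower on the 3 knockout arrays than on the 3 wild-type arrays in cortex.

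Neat1 passed no test, and its values were uneven. 1428083_at was listed on 5 cortex arrays, at 90.9 and 138 in wild type and 72.7, 119 and 88.5 in knockout (log2 change -0.25, SE 0.218, limma adjusted p = 0.648). Its signals in rest were 211, 122 and 147 in wild type and 223, 174 and 226 in knockout, with overlapping groups (log2 change 0.37, SE 0.190, limma adjusted p = 0.557). On the B chip 1442881_at read 111, 644 and 586 in wild-type cortex and 236, 262 and 297 in knockout cortex. Wild-type array 1 stood far below the other 2, and all knockout arrays lay between. The log2 change was -0.40 (SE 0.445, limma adjusted p = 0.931), and without that array it was -1.17 (limma adjusted p = 0.0290), so 1 array decides this value. In rest the same probe set read 88.3, 36.4 and 69.4 in wild type and 81.4 and 70.9 on the 2 knockout arrays that listed it (log2 change 0.25, limma adjusted p = 0.823).

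Miat passed no test. 1455325_at read 6161, 6847 and 5620.2 in wild-type cortex and 5974, 5221 and 6294 in knockout cortex on the B chip (log2 change -0.09, SE 0.122, limma adjusted p = 0.947). The rest values were 2803, 2731 and 2661 in wild type and 2989.6, 3206 and 3014 in knockout. The groups did not overlap there, but the difference was small, 1.12-fold (log2 change 0.17, SE 0.0593, limma adjusted p = 0.351). 1458903_at was blank on the B chip and listed on 3 arrays in rest, too few for a fit, and the A chip held no Miat probe set.

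Snhg11 passed no test either. 1434292_at read 1438, 1518 and 1520.1 in wild-type cortex and 1450.1, 1246 and 1262 in knockout cortex (log2 change -0.18, SE 0.0769, limma adjusted p = 0.295). In rest it read 3366, 3134 and 2961 in wild type and 3369, 3578 and 3439 in knockout, where wild-type array 1 stood just below knockout array 1 (log2 change 0.14, SE 0.0653, limma adjusted p = 0.516). 1437311_at read 357, 276 and 346 in wild-type cortex and 483 and 335 on the 2 knockout arrays that listed it on the B chip (log2 change 0.30, limma adjusted p = 0.871). Its signals in rest were 73.2 and 78.6 in wild type, with array 1 blank, and 95.3, 103 and 116 in knockout (log2 change 0.39, SE 0.166, limma adjusted p = 0.460).

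**Figure D4:**
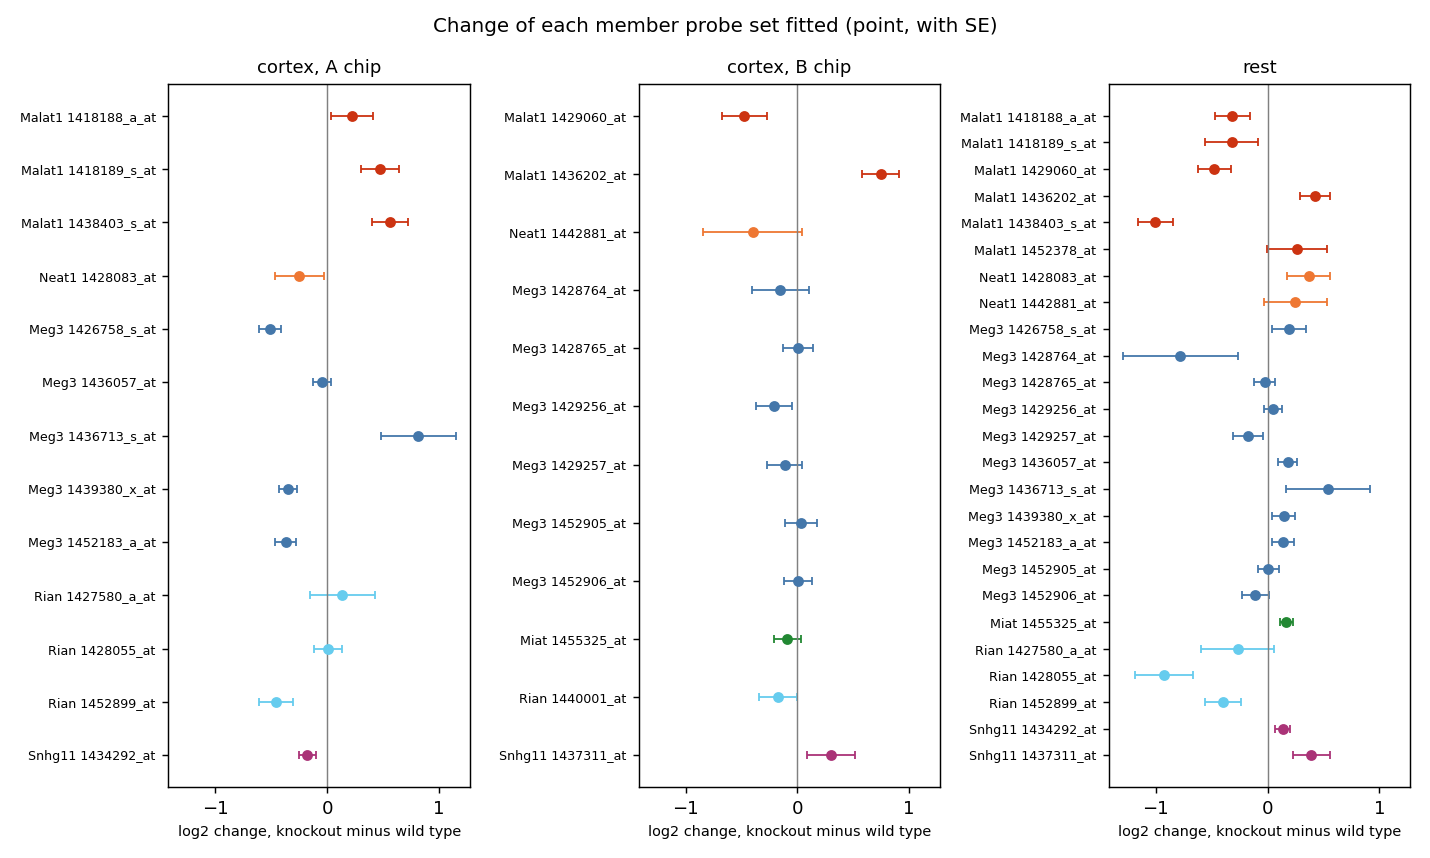
Log2 change, knockout minus wild type, of every member probe set fitted in the cortex A chip, cortex B chip and rest tables, coloured by gene. Points are the fitted change and bars its SE from limma on 3 arrays of each genotype, fewer where arrays were blank. Within rest, Malat1 spreads from -1.003 to 0.43 and Meg3 from -0.78 to 0.54. The Meg3 sets run from -0.51 to 0.82 on the A chip and lie between -0.21 and 0.03 on the B chip.

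Genes that work with these RNAs were read from lists by function, 1 probe set a gene, the brightest. Of proteins of nuclear speckles, where Malat1 RNA sits, 0 of 20 (A chip), 0 of 10 (B chip) and 0 of 21 (rest) passed (limma), with 1, 1 and 4 at an unadjusted p under 0.05 and median log2 changes of -0.08, -0.02 and -0.04. Of paraspeckle proteins, which assemble on Neat1, 0 of 13, 0 of 8 and 0 of 14 passed (limma), with 0, 1 and 1 at an unadjusted p under 0.05. Of subunits of Polycomb repressive complex 2, a reported partner of Meg3, 0 of 7 passed on the A chip and 0 of 7 in rest (limma), with 1 and 2 at an unadjusted p under 0.05. Of the proteins reported to bind Miat, 0 of 2 passed in each table (limma), with 0, 0 and 1 at an unadjusted p under 0.05. The median over all probe sets tested was -0.01 (A chip), 0.000273 (B chip) and 0.000952 (rest).

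Other long noncoding RNAs gave the same count. Of those tested, 0 of 8 (A chip), 0 of 22 (B chip) and 0 of 27 (rest) passed (limma), with 0, 2 and 2 at an unadjusted p under 0.05 and medians of 0.06, -0.05 and -0.01. Of imprinted genes, the class to which Meg3 and Rian belong, 2 of 16 rose on the A chip and none fell. These were Igf2, the fetal growth factor, from 1039 ± 72.1 to 2194 ± 196 (SD, n = 3 each; log2 change 1.07, limma adjusted p = 7.67e-05), and Cdkn1c, an inhibitor of the cell cycle, from 128 ± 15.4 to 206 ± 7.69 (SD, n = 3 each; log2 change 0.63, limma adjusted p = 0.0172). In rest 0 of 20 imprinted genes passed (limma, 3 at an unadjusted p under 0.05). Dlk1, a protein-coding gene of the Meg3 domain, changed by 0.39 on the A chip (limma adjusted p = 0.346) and 0.05 in rest (limma adjusted p = 0.945). Mirg, a microRNA host further along the domain, changed by -0.18 on the B chip (limma adjusted p = 0.871) and 0.18 in rest (limma adjusted p = 0.563). Among the 5 nearest genes on each side of the members, 0 of 8 (A chip), 0 of 3 (B chip) and 0 of 10 (rest) passed (limma), with 2, 0 and 1 at an unadjusted p under 0.05. Ltbp3, a neighbour of both Malat1 and Neat1, changed by 0.61 on the A chip (limma adjusted p = 0.130) and -0.37 in rest (limma adjusted p = 0.457). Other neighbours of Malat1 or Neat1 went both ways. On the A chip and in rest, Frmd8 changed by 0.16 and -0.24, and Dpf2 by 0.19 and -0.06. Ehbp1l1 changed by -0.08 and 0.27, and Znrd2 by -0.10 and 0.07. Lbp, a neighbour of Snhg11, changed by 0.69 (limma adjusted p = 0.0508) and -0.15 (limma adjusted p = 0.794). Of immediate early genes, which neural activity and tissue handling induce, 3 of 6 rose on the A chip, Jun (log2 change 0.84, limma adjusted p = 0.0134), Klf4 (0.83, 0.0298) and Dusp1 (0.57, 0.0170), and 0 of 8 passed in rest (limma, 2 at an unadjusted p under 0.05).

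Signals of several sets of cell type markers moved with genotype beside these values. In bulk RNA, fewer cells of a type and less RNA per cell cannot be told apart. Summed signals add 1 probe set a gene, the brightest, with blank cells counted as no signal, so blanks lower a sum. In cortex the lowest microglial sum in wild type lacks Cx3cr1 and Ctss, and the lowest interneuron sum in knockout lacks Dlx1. General neuronal markers had summed signals of 10388 to 11638 in wild-type and 10648 to 11076 in knockout cortex on the A chip, and 26501 to 28517 against 27066 to 28275 in rest. None of the 7 neuronal markers passed in either table (limma), with 1 and 0 at an unadjusted p under 0.05. Interneuron markers summed to 1112 to 1289 in wild-type and 512 to 739 in knockout cortex, where 3 of 4 fell: Dlx1, a transcription factor of interneuron precursors (log2 change -1.62), Lhx6 (-0.99) and Gad1, which makes GABA (-0.58). In rest 0 of 5 passed (limma, 1 at an unadjusted p under 0.05). Mural and meningeal markers summed to 3042 to 3456 in wild-type and 7694 to 9133 in knockout cortex, where 6 of 7 rose, led by Col3a1 (log2 change 2.01), Col1a1 (1.82) and Col1a2 (1.53). In rest they summed to 4550.0 to 8171 and 10516 to 10834, and 3 of 8 rose, Col3a1 (1.40), Lum (1.30) and Dcn (0.96). Microglial markers summed to 1773 to 2044 and 3347 to 3445 in cortex, where 4 of 5 rose, and to 2459 to 2962 and 2982 to 3667 in rest, with 0 of 4 called (limma, 3 at an unadjusted p under 0.05). Of astrocyte markers 2 of 6 rose in cortex on the A chip, Gja1 (0.63) and Aqp4 (0.53), and of endothelial markers 2 of 4, Cdh5 (0.72) and Cldn5 (0.47). In rest 0 of 6 and 0 of 4 passed (limma), with 1 and 0 at an unadjusted p under 0.05.

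Oligodendrocyte markers summed to 2249 to 2870.0 in wild-type and 558 to 903 in knockout cortex, where 1 of 2 tested fell. This was Mbp, a myelin protein, by 3.17 on the log2 scale (limma adjusted p = 9.63e-05), while Cnp changed by -0.40 (limma adjusted p = 0.147) and Mog was blank on all arrays. In rest the sums were 12980.3 to 13621 and 1125 to 7885, a wide knockout range, and 0 of 4 passed (limma, 4 at an unadjusted p under 0.05). The lowest of these sums, 1125, lacks Mobp, which was blank on that array. Of markers of oligodendrocyte precursors 1 of 4 fell on the A chip, Olig1 (-0.50), 1 of 1 on the B chip, Gpr17 (-1.63), and 2 of 5 in rest, Gpr17 (-2.06) and Olig2 (-1.05). Choroid plexus markers summed to 2017 to 5201 and 5441 to 5995 in cortex on the A chip, and 6490 to 7819 and 2019 to 9272 in rest. The lowest A chip sum, 2017, lacks Folr1, which was blank on that array. Of the choroid plexus markers 0 of 2 passed on the A chip and 0 of 3 in rest (limma), with 2 and 0 at an unadjusted p under 0.05. On the B chip 1 of 2 rose, Kcnj13 (log2 change 1.25, limma adjusted p = 0.0414), with 2 at an unadjusted p under 0.05. Of markers of cortical excitatory neurons all 4 on the A chip were listed in cortex. Of cerebellum and hindbrain genes 6 of 10 were also listed there, among them Zic1 (250.2 in wild type and 378 in knockout), Cbln1 (319 and 296) and Neurod1 (364 and 185), while Cbln3, Barhl1, Hoxb3 and Hoxb5 were blank. Listed means a signal on at least 1 array. In rest 4 of 5 cortical excitatory markers and all 10 cerebellum and hindbrain genes were listed. The listing of markers thus does not by itself separate cortex from rest or check the label. The part of these cell types in the changes of the noncoding RNAs was not tested.

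The genes whose signals ran most like Malat1 1438403_s_at over the 12 arrays of the A chip and rest tables, among 10886 probe sets, were Cemip2 (Pearson r = 0.936), Elovl1 (0.910), Tmem41b (0.887), Plekhb1 (0.876) and Josd2 (0.861). Its own probe sets 1418188_a_at and 1418189_s_at had r of 0.790 and 0.763. For Meg3 1439380_x_at the nearest were Pi4ka (0.975) and Cox5a (0.915), and its own 1436713_s_at stood at -0.533. For Rian 1452899_at they were Thy1 (0.911) and Hnrnph2 (0.906), with its own 1427580_a_at at 0.209. For Snhg11 1434292_at they were Plscr3 (0.928) and Meg3 1452183_a_at (0.918). These values describe likeness between probe sets read on the same arrays, each table scaled and centred apart, with genotype left in.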

How the data were processed

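RNA was hybridised to 18 Affymetrix arrays, 3 for each of 6 groups. The deposited values are probe set signals, linear intensity values made by the authors with MAS5, per the submitters' processing notes; the version and the meaning of blank cells are not given in the sources used here. Within each table, arrays were brought to the same trimmed mean (2% off either end) of the probe sets that no array left blank. Signals were transformed as log2(signal + 16), which understates changes of dim probe sets. Testing required a listed signal on 2 or more arrays per genotype. Knockout was compared with wild type with limma 3.58.1 in R 4.3.3 (eBayes with trend), with Benjamini-Hochberg adjustment over each table and calls at an adjusted p under 0.05. A joint fit compared the knockout effect in rest with that on the A chip. Symbols came from the array annotation, updated by gene identifier, and only probe sets with 1 gene were named.

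The members, the gene lists and the rule for named genes were chosen with earlier results of these data known. The rule names every member probe set, up to 4 called genes per list, the 10 nearest genes of each member, and the genes most correlated with Malat1 (5) and with the other members (2 each). Of the nearest genes, only some are given by name here. Genes of lists named without a call were chosen after their values were seen. Replicate numbers were checked as pairs of wild-type and knockout arrays: deviations from the group means correlated at -0.00876 to 0.0189 (A chip), 0.0721 to 0.159 (B chip) and 0.0227 to 0.251 (rest), so the numbers were not taken as pairs. Alternatives were other scalings, offsets, filters on blanks, variance models, array weights, a replicate block, a beta-actin covariate, a sex term, and leaving out each array. The number of arrays limits the precision.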

Additional observations from a re-analysis of the deposited data

Results flagged for a closer look

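The log2 change of Malat1 1438403_s_at in rest minus that on the cortex A chip was -1.56 (SE 0.245). It stood out because every knockout array was above every wild-type array in cortex, and below every wild-type array in rest. The difference was not tested, since the gene was picked for it.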

How the results depend on the processing

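Of 1212 values of member probe sets under the alternatives, 1118 were the same, 19 lost a call, 3 gained one, 69 moved and 3 reversed. For the tested genes, same means sign and side of the threshold kept, and moved means a change of sign with no call. Meg3 1428765_at on the B chip moved in 8 of 18 (-0.0787 to 0.124). For Malat1, same means sign kept with a shift smaller than the SD within groups. There, moved means a larger shift and reversed a change of sign. Malat1 1438403_s_at kept its signs, with log2 changes of 0.42 to 0.75 in cortex, -1.12 to -0.83 in rest and -1.75 to -1.37 for the difference. The reversals were Malat1 1418188_a_at in cortex without wild-type array 2 (-0.00484; up to 0.35 without array 3), 1418189_s_at in rest with a sex term (0.10) and 1452378_at in rest without wild-type array 3 (-0.0839; 0.60 without array 2). Their cause was not tested.

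Counts of called probe sets moved more. At an adjusted p under 0.10 they were 607 on the A chip, 48 on the B chip, 161 in rest and 16 for the difference. With a sex term they were 83, 24, 10 and 0 (limma; 665 at an unadjusted p under 0.05 for the difference). Without a variance trend they were 9 on the B chip, 11 in rest and 3 for the difference, and with array weights 66 on the B chip and 11 for the difference. For the difference, an offset of 64 gave 3, blanks set to a low signal 59 and the beta-actin covariate 16. With the replicate block the counts were 294 on the A chip, 12 on the B chip, 143 in rest and 7 for the difference; among the members it ended the call of Meg3 1439380_x_at (adjusted p = 0.0928, limma). Leaving out 1 array gave 192 to 313 on the A chip (224 without wild-type array 1, 192 without knockout array 2), 10 to 27 on the B chip (12 and 13 without wild-type arrays 1 and 2, 10 without knockout array 2) and 20 to 76 in rest (30 without wild-type array 2 or knockout array 1, 20 without knockout array 2). For the difference it gave 3 to 27, the highest without rest knockout array 3 and 3 without cortex knockout array 1 or 3, rest wild-type array 1 or rest knockout array 1. Probe sets blank on some or all arrays limit what can be said of Neat1, Rian, Miat, Snhg11 and some of Malat1.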
